A study of Mus musculus with 5 samples.

Results

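Fgfr1, Dusp1, Dusp4, Dusp5, Dusp6, Dusp9, Spry2, Spry4, Etv4 and Etv5 encode a receptor for fibroblast growth factors (FGF), intracellular brakes on the ERK kinase cascade that it starts, and transcription factors that the cascade switches on. All 10 genes were measured, out of 19938 genes tested. They were taken by name: each had at least 1 array feature annotated with its symbol and no other, 11 features in all, and the brightest one on average stood for the gene. The samples were mouse embryonic stem cells (C57BL/6 strain, undifferentiated), 3 independent Mkl2-/- cultures and 2 independent wild-type cultures, each on an array of its own. Every culture grew on gelatin and feeder fibroblasts in serum with leukaemia inhibitory factor, and feeders were left behind on a dish, to which they attach first, before RNA was taken. The sources used here give neither the Mkl2 allele nor the number of cell lines behind the cultures, so p-values cover the spread of cultures only. With 5 arrays, precision is limited by their number.

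In embryonic stem cells, FGF ligands act through FGF receptors, RAS and RAF on the kinases MEK and ERK. ERK signalling is known there for moving cells out of the naive pluripotent state and towards the primitive endoderm. ERK also induces its own inhibitors: Dusp phosphatases remove phosphate from MAP kinases, and Sprouty proteins act between the receptor and RAF. The ETS-family factors Etv4 and Etv5 are transcribed in response to FGF and are widely read as markers of its activity. Mkl2 (now Mrtfb) encodes a myocardin-related partner of serum response factor (SRF), which binds DNA at the CArG box.

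Values are log2 expression levels as deposited, and each difference is Mkl2-/- minus wild type, so that a difference of 1 is a 2-fold change. The Mkl2 transcript was lower on every Mkl2-/- array. Its 3 features averaged 9.24, 8.86 and 8.87 in Mkl2-/- cells, against 9.78, 9.84 and 9.70 in wild-type cells. The sources used here do not say which part of the gene is altered, or where these features lie relative to it. A background level of 7.30, from 1027 olfactory receptor genes, was exceeded by all 10 FGF-ERK genes on every array.

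The receptor gene and 3 of the 5 phosphatase genes fell in Mkl2-/- cells, and the Sprouty and Etv genes did not pass the test. Fgfr1, Dusp1, Dusp5 and Dusp9 fell by 1.13-fold to 1.36-fold (limma adjusted p below 0.05). The other phosphatase genes, Dusp4 and Dusp6, had negative differences that did not pass. All 4 Sprouty and Etv genes had small positive differences, of which 0 passed (limma; 2 of these 4, Spry2 and Etv5, had an unadjusted p under 0.05). The 4 falls among 10 genes stand beside 6.28% of all genes called lower, 2.99% called higher and 9.27% called in either direction. Those shares include dim genes, while each of the 10 had a mean level at or above that of 68% of genes. In a fit of only the 9962 genes above the median gene, 1466 were called lower and 856 higher. Of the 10 genes, that fit called 4 lower and 1 higher. On 8 of the 10 genes the arrays of both groups did not overlap, against 33.6% of all genes, dim ones included. The median difference of the 10 genes was -0.11, and it was 0.02 over all genes. When the deposited values were quantile normalized again, the calls numbered 4 lower and 2 higher, and 43.2% of calls over all genes were upward in place of 32.3%.

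The calls rested on all 5 arrays. Without Mkl2-/- replicate 1 or Mkl2-/- replicate 2, 1 of the 10 genes was called, Fgfr1 in both cases. Without Mkl2-/- replicate 3, 2 were called, Dusp1 and Dusp9. Without either wild-type replicate 0 of the 10 were called (limma; 5 had an unadjusted p under 0.05 without wild-type replicate 1 and 4 without wild-type replicate 2). Each of these fits has fewer degrees of freedom than the fit of all arrays. In them every difference kept its sign except that of Dusp6, which was 0.005 without Mkl2-/- replicate 1. For the 8 genes whose groups did not overlap this was fixed beforehand, because no single array left out could change the sign.

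**Figure D1:**
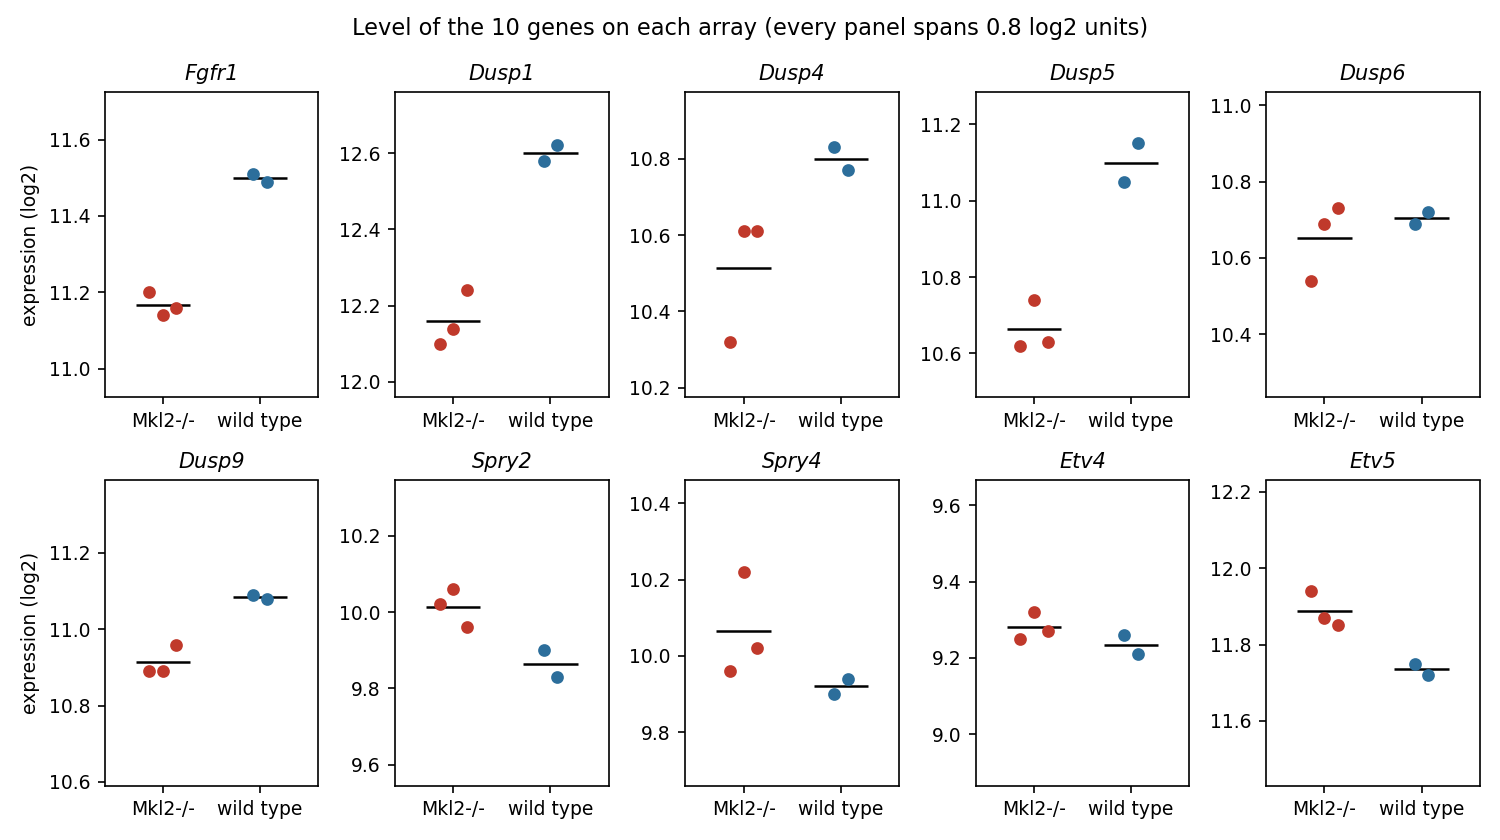
Log2 expression of each of the 10 genes on every array, Mkl2-/- (red, 3 arrays) and wild type (blue, 2 arrays), with the group mean as a bar. Each panel spans the same range of log2 units. The red points lie below the blue ones for Fgfr1, Dusp1, Dusp4, Dusp5 and Dusp9, above them for Spry2, Spry4 and Etv5, and overlap them for Dusp6 and Etv4.

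Fgfr1 encodes the main FGF receptor of embryonic stem cells and had the smallest p of the 10 genes. Its log2 level was 11.20, 11.14 and 11.16 on the Mkl2-/- arrays, against 11.51 and 11.49 on the wild-type arrays. All Mkl2-/- arrays were lower than both wild-type arrays, with a gap of 0.29 between the groups. The difference was -0.33 ± 0.02 (SE, n = 3 and 2), a 1.26-fold fall (limma adjusted p = 0.0107). When single arrays were left out, the difference ran from -0.35 to -0.32 and its adjusted p from 0.042 to 0.076 (limma), without passing when Mkl2-/- replicate 3 (0.060), wild-type replicate 1 (0.055) or wild-type replicate 2 (0.076) was absent.

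Dusp1 encodes a nuclear phosphatase of p38, JNK and ERK and is a classic immediate early gene, transcribed soon after a growth stimulus. It read 12.10, 12.14 and 12.24 in Mkl2-/- cells, against 12.58 and 12.62 in wild-type cells. The arrays of both groups did not overlap, and the gap of 0.34 was the widest of the 10 genes. The difference was -0.44 ± 0.05 (SE, n = 3 and 2), a 1.36-fold fall (limma adjusted p = 0.0225). It passed without Mkl2-/- replicate 3 (limma adjusted p = 0.041) and not without any other array, where the adjusted p ran up to 0.133.

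Dusp5 encodes a nuclear phosphatase specific for ERK. It read 10.62, 10.74 and 10.63 in Mkl2-/- cells, against 11.05 and 11.15 in wild-type cells. The groups did not overlap here either, with a gap of 0.31. The difference was -0.44 ± 0.06 (SE, n = 3 and 2), a 1.35-fold fall (limma adjusted p = 0.0278). With any 1 of the 5 arrays left out the adjusted p was 0.064 to 0.133 (limma), and the difference stayed between -0.49 and -0.39.

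Dusp9 is an X-linked gene for an ERK phosphatase found largely in the cytoplasm, and it is known in mouse embryonic stem cells as a gene that BMP signals raise to restrain ERK. Its level was 10.89, 10.89 and 10.96 in Mkl2-/- cells, against 11.09 and 11.08 in wild-type cells. The groups did not overlap, but the gap was 0.12. The difference was -0.17 ± 0.03 (SE, n = 3 and 2), a 1.13-fold fall and the smallest of the 4 that passed (limma adjusted p = 0.0465). It did not pass when all 35556 features were fitted together (limma adjusted p = 0.069). It passed without Mkl2-/- replicate 3 (limma adjusted p = 0.036) and not without any other array, where the adjusted p was 0.144 to 0.180.

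Dusp4 and Dusp6 did not pass. Dusp4, a nuclear phosphatase gene for ERK and JNK, read 10.32, 10.61 and 10.61 in Mkl2-/- cells, against 10.83 and 10.77 in wild-type cells. Mkl2-/- replicate 1 lay 0.29 below the other two, and all 3 were below both wild-type arrays. The difference was -0.29 (95% interval -0.60 to 0.03, limma adjusted p = 0.257), and it was -0.19 without that replicate. Dusp6 encodes a cytoplasmic phosphatase specific for ERK and is often used as a readout of ERK activity. It read 10.54, 10.69 and 10.73 in Mkl2-/- cells, against 10.69 and 10.72 in wild-type cells. The groups overlapped, and the difference was -0.05 (95% interval -0.24 to 0.14, limma adjusted p = 0.626). The interval of Dusp6 lies above that of Dusp5 (-0.59 to -0.28), but overlaps those of Dusp4 and Dusp9, and differences between the phosphatase genes were not tested.

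The bases before the gene start are shown for Dusp1 and Dusp5, which fell, and for Dusp6 and Spry2, which did not pass, to set the DNA beside the values. They come from RefSeq on assembly GRCm38, read in the direction of the gene, and the last base is the one before the annotated start. Of the 10 genes, 5 had such a window in the table used here: these 4 and Etv5. Each was searched on both strands for the CArG box, the cAMP response element (TGACGTCA), the AP-1 site (TGANTCA) and an extended ETS site (CCGGAA). Matches are in capitals.
Dusp1 (chr17:26508473-26508722, minus strand): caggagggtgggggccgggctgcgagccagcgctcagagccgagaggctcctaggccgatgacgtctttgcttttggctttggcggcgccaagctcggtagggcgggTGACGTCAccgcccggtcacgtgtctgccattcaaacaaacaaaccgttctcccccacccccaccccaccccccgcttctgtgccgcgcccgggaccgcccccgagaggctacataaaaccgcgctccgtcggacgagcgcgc
Dusp5 (chr19:53528895-53529144, plus strand): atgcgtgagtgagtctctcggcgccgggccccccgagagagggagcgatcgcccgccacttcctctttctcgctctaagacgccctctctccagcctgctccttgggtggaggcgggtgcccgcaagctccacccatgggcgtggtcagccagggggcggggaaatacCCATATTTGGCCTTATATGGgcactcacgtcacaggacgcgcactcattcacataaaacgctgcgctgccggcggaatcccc
Dusp6 (chr10:99262981-99263230, plus strand): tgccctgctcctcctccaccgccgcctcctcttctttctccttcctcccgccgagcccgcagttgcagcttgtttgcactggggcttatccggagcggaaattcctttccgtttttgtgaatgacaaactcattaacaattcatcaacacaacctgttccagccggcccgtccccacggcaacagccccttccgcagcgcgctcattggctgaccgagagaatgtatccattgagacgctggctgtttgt
Spry2 (chr14:105896820-105897069, minus strand): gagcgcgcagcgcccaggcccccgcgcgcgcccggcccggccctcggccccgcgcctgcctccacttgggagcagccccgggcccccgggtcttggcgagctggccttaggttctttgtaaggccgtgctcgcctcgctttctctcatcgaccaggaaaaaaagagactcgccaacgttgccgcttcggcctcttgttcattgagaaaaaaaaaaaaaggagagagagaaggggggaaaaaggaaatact

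Dusp5 held 2 CArG boxes side by side, CCATATTTGG beginning 82 bases and CCTTATATGG beginning 72 bases before the gene start. At least 1 CArG box was found in 1.47% of 32851 mouse windows of 250 bases, and 2 or more in 6 windows (0.0183%). Dusp1 held 1 cAMP response element, beginning 143 bases before the start, a motif found in 1.55% of the windows. The windows of Dusp6, Spry2 and Etv5 held none of the 4 motifs, of which the AP-1 site occurs in 6.75% and the ETS site in 12.0% of all windows. The shorter ETS core GGAA was not searched for, and it does occur in the printed windows of Dusp5, Dusp6 and Spry2. Nor was TGACG, the beginning of the cAMP response element, searched for. It also occurs elsewhere in the Dusp1 window and, on the other strand, in the Dusp5 window. A match describes the letters of the window and is no measurement of binding, and its part in the differences was not tested.

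Of the Sprouty genes, Spry2 read 10.02, 10.06 and 9.96 in Mkl2-/- cells, against 9.90 and 9.83 in wild-type cells. The Mkl2-/- arrays were all higher, by a gap of 0.06. The difference was 0.15 ± 0.04 (SE, n = 3 and 2; 95% interval 0.03 to 0.26 before any adjustment) and did not pass (limma adjusted p = 0.134). It passed after a further quantile normalization (0.19, limma adjusted p = 0.032), and under the other alternatives the adjusted p ran from 0.064 to 0.402. Spry4, the other Sprouty gene known for strong induction by FGF, read 9.96, 10.22 and 10.02 in Mkl2-/- cells, against 9.90 and 9.94 in wild-type cells. Mkl2-/- replicate 2 was the highest by 0.20, and the lowest Mkl2-/- array exceeded the higher wild-type array by 0.02. The difference was 0.15 (95% interval -0.11 to 0.40, limma adjusted p = 0.393), and without Mkl2-/- replicate 2 it was 0.07.

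Etv5, a transcription factor gene of the ETS family, has 2 features. The brighter read 11.94, 11.87 and 11.85 in Mkl2-/- cells, against 11.75 and 11.72 in wild-type cells, and the dimmer read 11.22, 11.18 and 11.18, against 11.07 and 11.12. On both features all Mkl2-/- arrays were above both wild-type arrays. The brighter feature differed by 0.15 ± 0.03 (SE, n = 3 and 2; limma adjusted p = 0.0859) and the dimmer, set in its place, by 0.10 (limma adjusted p = 0.105). The 20 features with identifiers nearest to the brighter one are all annotated to genes of chromosome 10, and 19 of 20 nearest to the dimmer one to chromosome 16, where Etv5 lies. Whether the brighter feature reads the Etv5 locus was not tested. Its difference passed after the further quantile normalization (0.16, limma adjusted p = 0.0498) and among genes above the median gene (0.15, limma adjusted p = 0.046), and the adjusted p under the other alternatives ran from 0.058 to 0.294.

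Etv4, the relative of Etv5, read 9.25, 9.32 and 9.27 in Mkl2-/- cells, against 9.26 and 9.21 in wild-type cells. The groups overlapped, and the difference was 0.05 (95% interval -0.04 to 0.13, limma adjusted p = 0.406). Averaged on each array, the 4 Sprouty and Etv genes lay between 10.28 and 10.37 in Mkl2-/- cells, against 10.18 and 10.20 in wild-type cells. The same mean over the 5 phosphatase genes lay between 10.89 and 11.03 in Mkl2-/- cells, against 11.25 and 11.27 in wild-type cells. The arrays of both groups did not overlap in either mean, and the means differed with opposite signs. The difference between these gene groups was not tested.

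**Figure D2:**
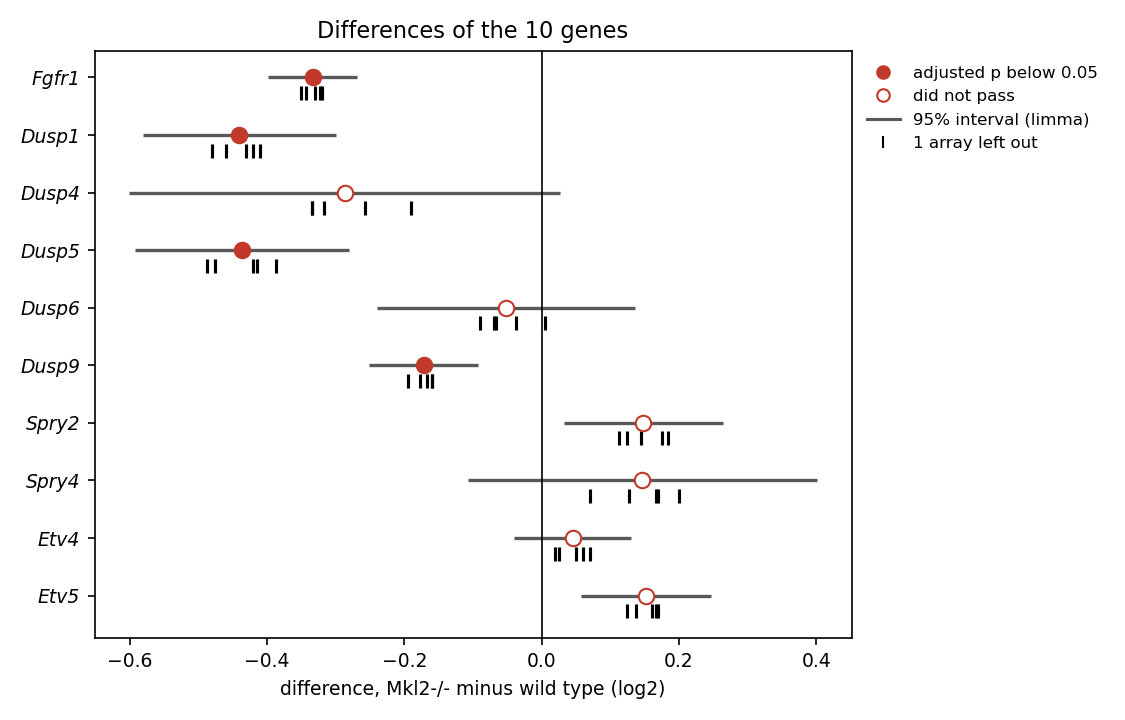
Difference of each of the 10 genes, Mkl2-/- minus wild type, in log2 units, with the 95% interval of the limma fit as a line and the difference with 1 array left out as short ticks. Filled points passed an adjusted p of 0.05: Fgfr1, Dusp1, Dusp5 and Dusp9, all below 0. The intervals of Dusp4, Dusp6, Spry4 and Etv4 cross 0.

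Genes lying next to the 10 genes had median differences near 0. Neighbours were the 20 nearest expressed genes on the same chromosome, by distance between RefSeq gene midpoints. Their median difference lay between -0.07 and 0.05 for all 10. It was 0.01 around Dusp9, although the X chromosome as a whole had a median of -0.05 over 409 expressed genes. Relative to those neighbours, Dusp1 differed by -0.49, Dusp5 by -0.41, Fgfr1 by -0.26 and Dusp9 by -0.18. For Etv4 the difference was -0.0017 after its neighbours' median of 0.05 was taken off. Single neighbours differed more than these medians. Around Fgfr1 they ran from -0.50 to 0.18, and around Etv5 from -0.79 to 0.32. In each of these 2 sets 4 of 20 were called (limma adjusted p below 0.05), against 9.27% of all genes, dim ones included. Around each of the other genes 1 to 3 of 20 were called.

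The genes most like Fgfr1 over the 5 arrays were Ppp1r7, Eprs and Ccnd1. Likeness was the mean absolute distance between values centred on each gene's own mean, over 13563 other expressed genes. The genes were thus chosen for values like those of Fgfr1, and similar differences follow from that choice. The distances were 0.010, 0.011 and 0.015 log2 units. Ppp1r7, a regulatory subunit gene of protein phosphatase, differed by -0.33. Eprs, a transfer RNA synthetase gene, differed by -0.32, as did Ccnd1, the cyclin D gene, which growth factor signals induce through ERK. Ccnd1 is counted again below among other genes that ERK induces. Shared regulation with Fgfr1 was not tested.

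Elsewhere in the pathway, 70 genes were analysed, and 4 rose, 12 fell and 54 did not pass. Over all genes 2.99% were called higher and 6.28% lower, and the counts of each list are given beside those shares. The median difference of the 70 genes was -0.01. When single arrays were left out, 5, 7 and 5 were called without Mkl2-/- replicates 1, 2 and 3, 5 without wild-type replicate 1 and 0 without wild-type replicate 2 (limma; 27 then had an unadjusted p under 0.05). Ligand genes moved both ways, with 2 rises and 2 falls among 18. Fgf4, the main FGF ligand that embryonic stem cells make themselves, read 10.43, 10.48 and 10.34 in Mkl2-/- cells, against 9.79 and 9.70 in wild-type cells, a 1.59-fold rise (0.67 ± 0.06, SE, n = 3 and 2; limma adjusted p = 0.0133). Fgf15 also rose (0.58, limma adjusted p = 0.0457). Fgf8, a ligand of the primitive streak, fell 2.17-fold (-1.12 ± 0.09, SE, n = 3 and 2; limma adjusted p = 0.0128), and Fgf18 fell 2.14-fold (-1.10, limma adjusted p = 0.0133). Fgfr1 and Fgf4 differed in opposite directions on all arrays, the receptor lower and the ligand higher in Mkl2-/- cells.

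Of the 6 other receptor and co-receptor genes, 1 passed: Klb, the co-receptor of endocrine FGFs, read 7.34, 7.42 and 7.60 in Mkl2-/- cells, against 6.76 and 6.60 in wild-type cells (limma adjusted p = 0.0300). Its wild-type arrays lay under the background level, so no fold is given. Among 15 measured adaptor and cascade genes 1 rose and 1 fell, and nothing is read from such counts about the list. Gab1, a docking protein that links receptors to RAS and PI3 kinase, read 11.74, 11.70 and 11.72 in Mkl2-/- cells, against 10.83 and 10.89 in wild-type cells, a 1.81-fold rise (limma adjusted p = 0.0054). Nf1, which encodes the RAS inhibitor neurofibromin, fell 1.34-fold (-0.42, limma adjusted p = 0.0443).

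Further feedback inhibitors and MAP kinase phosphatases gave 4 falls and 0 rises among 16 genes (limma; 1 had an unadjusted p under 0.05 and a positive difference). Il17rd, also called Sef, a membrane inhibitor of FGF signalling, read 9.77, 9.78 and 9.77 in Mkl2-/- cells, against 10.46 and 10.50 in wild-type cells. That was a 1.63-fold fall (-0.71 ± 0.02, SE, n = 3 and 2; limma adjusted p = 0.0041), larger in fitted size than that of any of the 10 genes. Dusp10, a phosphatase of p38 and JNK, fell 1.71-fold, Dusp14, a small MAP kinase phosphatase, 1.43-fold, and Errfi1, an inhibitor of the EGF receptor family, 1.35-fold (limma adjusted p = 0.0108, 0.0139 and 0.0354). Spry1, named here for its family after its values were seen, read 10.28, 10.12 and 10.17 in Mkl2-/- cells, against 9.97 and 9.87 in wild-type cells. Its difference of 0.27 did not pass (limma adjusted p = 0.0957) and had the sign of Spry2 and Spry4. Spry3, also named after its values were seen, had the opposite sign (-0.085, limma adjusted p = 0.469). It lay under the background level.

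Other genes that ERK induces gave 5 falls and 0 rises among 15 genes (limma; 1 had an unadjusted p under 0.05 and a positive difference). These were Fos (-1.01), Egr2 (-0.81), Egr1 (-0.72; named after its value was seen), Maff (-0.40) and Ccnd1 (-0.32), with limma adjusted p-values from 0.0107 to 0.0258. Fos, Egr1 and Egr2 are immediate early genes, as Dusp1 is, and are known to depend on SRF as well as on ERK. Of 10 naive pluripotency genes that ERK signalling is known to lower, 3 fell and 2 rose. Nanog (-1.14), Klf4 (-0.69) and Tfcp2l1 (-0.67, named after its value was seen) were lower, and Nr0b1 (0.49) and Klf5 (0.28) higher in Mkl2-/- cells (limma adjusted p from 0.0067 to 0.0325).

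**Figure D3:**
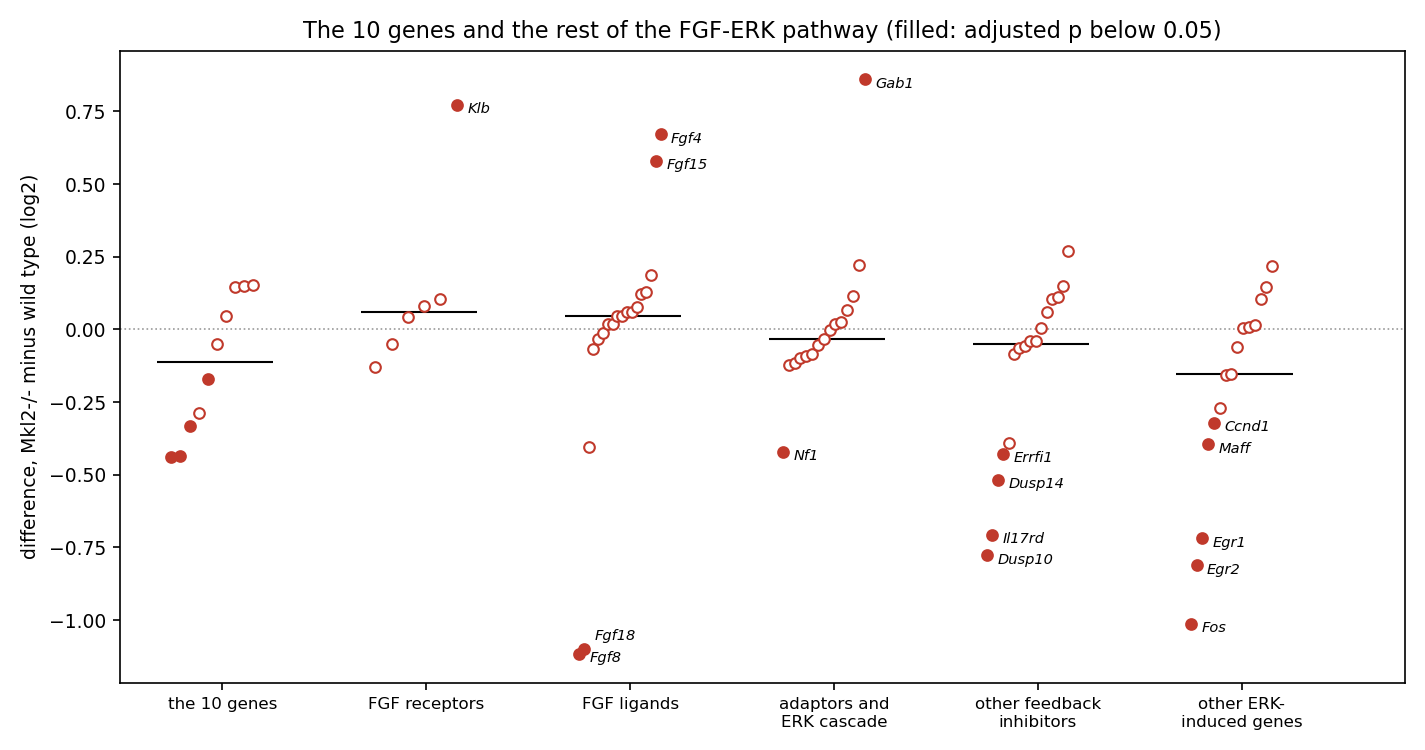
Difference of every measured gene, Mkl2-/- minus wild type, in log2 units, for the 10 genes and 5 lists of other FGF-ERK genes, ordered within each list, with the list's median as a line. Filled points passed an adjusted p of 0.05 and are named outside the 10 genes. The feedback inhibitors and ERK-induced genes that passed all lie below 0, and ligands lie on both sides. In wild type, Klb read below background.

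Markers of cell types were followed beside these values. All 10 embryonic stem cell markers were above the background level, with 4 higher in Mkl2-/- cells, 0 lower and 6 that did not pass (limma; 1 lower at an unadjusted p under 0.05). The 4 were Dppa4, Fgf4, Dppa5a and Utf1 (limma adjusted p from 0.0133 to 0.0302), and Fgf4 is also the ligand gene described above, so the marker count is not separate from the FGF-ERK values. The 10 naive pluripotency genes above were counted apart from these markers. Among them 3 fell, Nanog, Klf4 and Tfcp2l1, and 2 rose. Fibroblast markers, for feeder cells carried over, had a mean log2 level of 7.70 to 7.74 on the Mkl2-/- arrays, against 7.81 and 7.82 on the wild-type arrays. Of 17 measured, 14 were above the background level, 13 had a negative difference, 2 fell and 15 did not pass (limma; 4 were lower at an unadjusted p under 0.05). Those that fell were Mmp2, a secreted protease gene, which averaged 9.74 in Mkl2-/- cells and 10.01 in wild-type cells (limma adjusted p = 0.0111), and Pdgfrb, a growth factor receptor gene, which averaged 7.81 in Mkl2-/- cells and 8.09 in wild-type cells (limma adjusted p = 0.0350). The mean of the fibroblast markers was thus lower on every Mkl2-/- array, as were Fgfr1, Dusp1, Dusp5 and Dusp9. Primitive endoderm markers averaged 9.02 to 9.18 in Mkl2-/- cells, against 8.50 and 8.58 in wild-type cells, with 6 of 15 higher and 1 lower. Among them Cubn rose most (2.87, limma adjusted p = 0.0079) and weighs on that mean, but its wild-type mean of 6.44 lay under the background level. Lama1 rose by 1.45 and Pdgfra by 0.75 (limma adjusted p = 0.0079 and 0.0154). Gata4 rose by 0.93 and Gata6, named after its value was seen, by 0.94 (limma adjusted p = 0.0164 and 0.0198). Sparc, also named after its value was seen, was the marker that fell (-0.24, limma adjusted p = 0.0451). The part of these cell types in the differences of the FGF-ERK genes was not tested, and in cultures measured in bulk fewer cells of a type and less RNA per cell cannot be told apart.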

How the data were processed

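Per the submitters' processing notes, the authors made the deposited log2 values with RMA in Affymetrix Expression Console 1.1. RMA corrects background, normalizes quantiles and summarizes probes, which compresses differences of dim features. The sources used here name no other setting, scan date or batch. The table holds 35556 features on 5 arrays. Levels have 2 decimals, and many are the same on different arrays. Between pairs of arrays, 15.45% (Mkl2-/- replicate 3 and wild-type replicate 2) to 27.5% (Mkl2-/- replicate 1 and wild-type replicate 1) of values were identical. For 776 genes the variance within groups was 0. The effect of such ties on standard errors and adjusted p-values was not tested. The platform annotation gave 1 symbol to 21789 of them. The brightest feature per gene left 19938 genes, of which 13564 lay above the background level, the 95th percentile of olfactory receptor genes. The fit of both genotypes used limma 3.58.1 (lmFit, eBayes) under R 4.3.3 (3 residual and 0.885 prior degrees of freedom), with Benjamini-Hochberg adjustment over all genes, both directions and a threshold of 0.05. The fit was tested on simulated data. It recovered 42% of simulated 1.25-fold changes, 88% of 1.5-fold, 90% of 2-fold and 100% of 4-fold, with 4 false calls among 164. Smaller changes were not simulated. The fitted changes of the Sprouty and Etv genes, Dusp4 and Dusp6 were all below 1.25-fold. Not passing therefore does not show that these genes were unchanged.

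The genes, lists and tests were chosen with earlier results of these data known. The text names the 10 genes, Mkl2, up to 4 called genes of each list by p, and the 3 genes most like the one with the smallest p. Other names are marked as chosen later. Motifs were also chosen after the values were known. Alternatives were 2 normalizations, 2 filters on dim genes, a trended and robust eBayes prior, mean or all features, the replicate block, each array left out, subtraction of neighbouring genes and, added after seeing the data, the other Etv5 feature. Figures were drawn with matplotlib 3.10.9 in Python 3.11.15.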

Additional observations from a re-analysis of the deposited data

How the results depend on the processing

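Calls over all genes numbered 1848, 2906 after quantile normalization and 2949 after cyclic loess on top of the deposited values. With single arrays left out there were 0 to 963 calls over all genes, 0 to 2 among the 10 genes and 0 to 7 among the other pathway genes. The lowest, 0 over all genes (limma; 4411 with an unadjusted p under 0.05), came without wild-type replicate 2. With the replicate block there were 0 calls over all genes, 0 among the 10 genes and 0 among the other pathway genes (limma; 3827, 5 and 23 had an unadjusted p under 0.05). The labels give the numbers 1 and 2 to both genotypes, but nothing says that they pair cultures, and deviations from the group means correlated at -0.26 for number 1 and 0.18 for number 2. The count among the 10 genes was 3 to 6 under the other alternatives. Over 14 refitted alternatives, 9 of the 10 genes kept their sign in all and Dusp6 in 13. The filters on dim genes, the trended prior and the fit of all features left each difference as it was. No sign could change there. Feature means and the other Etv5 feature could alter the difference of Etv5 only, among the 10 genes. For the 8 genes whose groups did not overlap, single arrays left out and the replicate block could not change a sign either. Subtraction of neighbouring genes is outside the 14, and it turned the difference of Etv4 to -0.0017.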

Other observations

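The side-by-side CArG boxes of Dusp5 were set against other genes, chosen after the sequence was seen and given as values only. The 6 windows with 2 or more CArG boxes belong to 5 genes, of which 3 were measured. Dusp5 fell (-0.44, limma adjusted p = 0.0278), Srf, the gene of the factor that binds the box, differed by -0.16 without passing (limma adjusted p = 0.0997), and Ceacam11 lay under the background level. Of 227 measured genes with at least 1 CArG box in the window, 21 were called lower (9.25%) and 6 higher (2.64%) in Mkl2-/- cells. Of 15387 measured genes with a window and no CArG box, 960 were lower (6.24%) and 461 higher (3.00%). The median differences were 0.01 and 0.02.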
